A study of Mus musculus with 12 samples.

Results

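Proteasome genes were followed through a short calcium challenge in cultured mouse cortical glial cells. They were taken from the count table by symbol: names made of Psm, a letter from a to g and a number (with an optional ip), protein-coding, and with at least 120 counts over the 12 libraries. Of 49 symbols that match this pattern, 47 had enough counts, out of 43322 genes in the table, and all 47 were among the 17077 genes tested. The other 2 were Psmb11, with 8 counts in all, which encodes the beta subunit of the thymus proteasome, and Psma8, with 56.9 counts, which encodes an alpha subunit of the testis proteasome. The fewest counts among the 47 were 2516 for Psmb9. One of the 47, Psmc3ip, carries the name of an ATPase subunit because its protein binds that subunit. It is a cofactor of meiotic recombination and is not part of the proteasome.

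The 26S proteasome degrades proteins that carry ubiquitin. Its 20S core is a barrel of outer alpha rings and inner beta rings, and the catalytic sites lie in the subunits encoded by Psmb5, Psmb6 and Psmb7. The 19S particle caps the barrel, binds ubiquitin, removes it and unfolds the substrate with a ring of ATPases. In immune responses the inducible subunits Psmb8, Psmb9 and Psmb10 take the catalytic places, and other caps (Psme genes) can replace the 19S particle. When proteasome activity is short, the membrane-bound transcription factor NRF1 (gene Nfe2l1) is extracted from the ER, cut by the protease DDI2, and activates most proteasome genes together with small MAF proteins.

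Poly-A RNA was sequenced from 3 groups of 4 libraries, all from glial cells of wild-type CD1 mice aged postnatal days 3 to 5, grown with 10 ng/ml EGF and used 3 to 7 days after 1 split. One group received thapsigargin at 3 µM for 60 min, which blocks the SERCA pumps that load the ER with calcium. Another was kept without external calcium, in a medium that contained the chelator EGTA, for 60 min. Controls received vehicle. The series text calls the 4 samples of a group biological replicates, and each culture was started from the frontal cortices of one mouse. Library totals were 42.1 ± 0.418 M counts with thapsigargin, 39.3 ± 2.51 M in calcium-free medium and 40.3 ± 2.13 M in controls (SD, n = 4 each). Astrocyte markers were abundant in controls (Slc1a3 at 2638 and Gfap at 1359 CPM, counts per 1 M), while the neuronal marker Rbfox3 was at 0.075 CPM and the oligodendrocyte marker Sox10 at 0.056 CPM. Other genes of the same lists were higher in controls: the neuronal genes Stmn2, Tubb3 and Syt1 were at 149.8, 17.05 and 12.1 CPM, and the oligodendrocyte lineage genes Olig1, Olig2 and Cspg4 at 1329, 244 and 24.3 CPM. Smooth muscle actin Acta2 was at 1956 CPM, and its cell source was not tested. The fibroblast collagen Col1a1 at 472 CPM and the microglial gene C1qa at 27.0 CPM show that the label of cultured astrocytes covers mixed cultures. These levels are means of 4 libraries, which differed for some markers. For Col1a1 and Gfap, replicate 4 lay far below the others, so their means describe no single library. In such bulk samples, fewer cells of a type and less RNA per cell cannot be told apart.

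Replicate 4 stood apart in every group. The X-inactivation RNA Xist measured 588 to 740 CPM in these 3 libraries and 0.0832 to 0.319 CPM in the other 9, and the Y-linked Ddx3y had the opposite split (0.0456 to 0.0954 against 63.1 to 82.2 CPM). Cell type markers differed too. In controls, replicate 4 was lower than replicates 1 to 3 for Col1a1 (73.2 against 577 to 632 CPM), Gfap (788 against 1525 to 1579) and C1qa (16.7 against 29.7 to 31.8). It was higher for Pdgfra (20.7 against 12.2 to 13.7 CPM) and Glul (1713 against 1543 to 1595). For each of these genes it was also the lowest or highest library, in the same direction, of both treated groups. Replicate 4 was the highest library of its group for 37 of the 47 proteasome genes with thapsigargin, 36 in calcium-free medium and 29 in controls. Over all genes, chi-square per degree of freedom between 2 libraries of a group would be near 1 for counting noise alone. Among replicates 1 to 3 it was 1.655 to 5.012 with thapsigargin, 2.185 to 3.677 in controls and 3.748 to 18.41 in calcium-free medium. Pairs with replicate 4 gave 36.82 to 44.71. The 4 libraries of a group were thus unevenly spread, which an SD or SE with n = 4 does not show. Main calls are therefore also given with the replicate number as a block or without replicate 4 where these change them.

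The upstream sequence of 6 genes is shown. Psma5, Psmd13 and Psma2 had the largest decreases, Psmb5 and Psmb6 encode catalytic subunits that also fell, and Psmd9 was the 1 gene called higher. The calls of Psmb6 and Psmd9 were lost under some alternative settings. The 6 were picked and do not stand for the 47 in how often they hold a motif. Each line gives the 150 bases before the annotated start of transcription, 5′ to 3′ on the gene's strand, from RefSeq (GRCm38.p6, an earlier build than the GRCm39 of the count table). Capitals mark matches to the antioxidant response element core TGACNNNGC, the kind of site that NRF1 and NRF2 bind with small MAF proteins, or to the CCAAT box, on either strand.
Psma5 (chr3:108256776-108256925, plus strand): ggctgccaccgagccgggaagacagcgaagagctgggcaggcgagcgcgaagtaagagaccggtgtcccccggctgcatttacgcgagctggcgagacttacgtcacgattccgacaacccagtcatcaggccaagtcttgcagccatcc
Psmd13 (chr7:140882244-140882393, plus strand): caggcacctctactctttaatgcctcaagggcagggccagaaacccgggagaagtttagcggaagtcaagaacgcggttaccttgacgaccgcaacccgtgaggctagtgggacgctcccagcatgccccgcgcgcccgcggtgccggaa
Psma2 (chr13:14613092-14613241, plus strand): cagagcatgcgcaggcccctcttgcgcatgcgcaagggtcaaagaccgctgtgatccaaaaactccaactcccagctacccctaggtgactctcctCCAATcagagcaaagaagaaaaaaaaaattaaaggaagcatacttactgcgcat
Psmb5 (chr14:54617996-54618145, minus strand): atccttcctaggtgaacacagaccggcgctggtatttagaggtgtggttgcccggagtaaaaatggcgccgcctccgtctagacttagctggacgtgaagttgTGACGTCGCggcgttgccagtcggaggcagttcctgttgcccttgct
Psmb6 (chr11:70525207-70525356, plus strand): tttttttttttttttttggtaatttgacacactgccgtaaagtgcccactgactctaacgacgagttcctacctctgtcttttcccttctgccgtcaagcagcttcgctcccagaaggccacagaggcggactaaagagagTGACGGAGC
Psmd9 (chr5:123228040-123228189, plus strand): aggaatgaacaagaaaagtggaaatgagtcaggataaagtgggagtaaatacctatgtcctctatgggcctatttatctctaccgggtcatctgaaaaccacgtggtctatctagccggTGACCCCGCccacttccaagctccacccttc
The RefSeq table held windows of 300 bases (250 before and 50 after the start) for 40 of the 47 genes; Psmb1, Psmb2, Psmb7, Psmc3, Psmd3, Psmd7 and Psmg2 had no entry. The response element core was found in 6 of the 40 (15%): Psmb5, Psmb6, Psmc6, Psmd9, Psmd12 and Psme4. It was found in 14% of the 27018 genes with a window, so its share among proteasome genes was close to that of all genes. The CCAAT box was found in 14 of the 40 (35%), against 41.1% of all genes. The 3 genes with the largest decreases had no response element core in this window, and of them only Psma2 had a CCAAT box.

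In control cells the parts of the complex differed in level. On a scale of CPM per kilobase of summed exon length (RPKM), which allows genes to be compared, the beta ring ran from 63.2 for Psmb5 to 185 for Psmb4, the highest of all 47. The alpha ring ran from 39.2 for Psma3 to 146 for Psma2. The ATPases ran from 48.6 for Psmc6 to 135 for Psmc3, and the other 19S subunits from 39.6 for Psmd11 to 127 for Psmd8. Exon lengths in the table are summed over all exons of a gene, so a gene with many alternative exons, such as Psma3 with 3325 bases, is understated on this scale. Subunits that the complex holds in equal number thus differed several-fold in mRNA per length.

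Most accessory genes lay below the lowest gene of the rings. The inducible subunits were at 28.1 ± 2.36 (Psmb10), 13.8 ± 1.14 (Psmb8) and 4.09 ± 0.238 RPKM (Psmb9) in controls (SD, n = 4 each), and Psmb9 was the lowest of the 47. Their constitutive counterparts were at 146 (Psmb7), 63.2 (Psmb5) and 132 RPKM (Psmb6). The 20S assembly chaperones Psmg1 to Psmg4 lay between 17.9 and 24.9 RPKM. Among the 19S assembly chaperones, Psmd5 was at 39.4, Psmd10 at 13.3 and Psmd9 at 10.98 RPKM. Of the alternative caps, Psme2 was at 61.9 and Psme1 at 51.5, within the range of the rings, and Psme4, which encodes the large single-chain activator PA200, at 9.90 RPKM. The largest spread among the 4 control libraries was that of Psme1, with a coefficient of variation of 11.9%, and its replicate 4 was the high one.

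Proteasome mRNA was lower with thapsigargin for many genes, among them 13 of the 14 genes of the 20S rings and 6 of the 17 of the 19S particle. By edgeR's quasi-likelihood test, 25 of the 47 genes passed an adjusted p under 0.05 (Benjamini-Hochberg over all genes), 24 of them lower and 1 higher. Over all genes tested, 31.2% passed, 14.8% lower and 16.4% higher. Every decrease was small: the largest was 0.39 on the log2 scale, and no member changed by 1.5-fold. The median log2 fold change of the 47 was -0.13, against -0.05 over all genes, and 42 of the 47 were below 0. The libraries of the groups did not overlap for 24 genes that were lower with thapsigargin and 2 that were higher, against 15.1% lower and 16.7% higher over all genes. Paired by replicate number, 36 of the 47 were lower in all 4 pairs and 4 higher in all 4, against 34.4% lower and 27% higher over all genes.

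**Figure D1:**
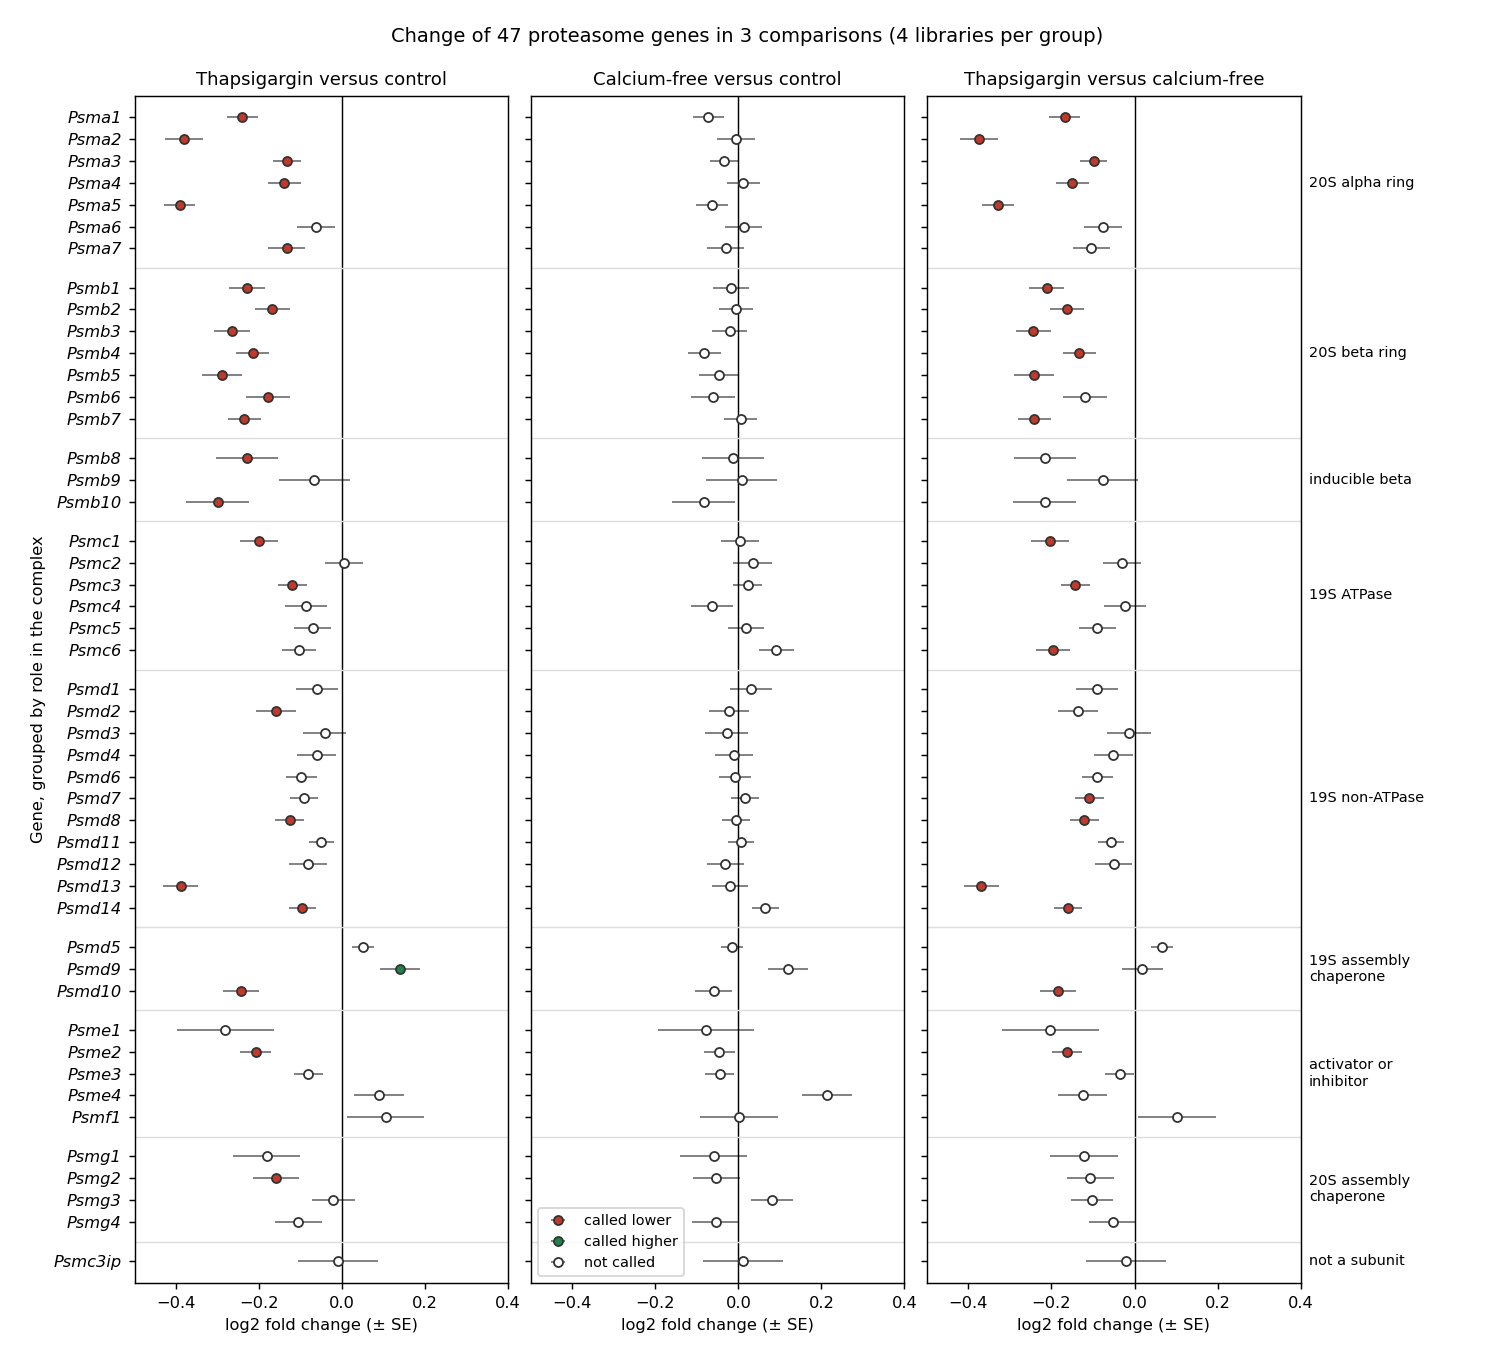
Log2 fold change with its SE for each of the 47 genes in 3 comparisons, with genes grouped by role; filled points passed the test (red lower, green higher). With thapsigargin 13 of the 14 genes of the 20S rings were called lower than in controls, while in calcium-free medium no gene was called.

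Values per library are given in the order of replicates 1 to 4, and coordinates of genes are those of the count table. The alpha ring forms the gated entrance of the barrel. Of its 7 genes, 6 fell with thapsigargin and Psma6 did not pass the test (-0.06 ± 0.05 on the log2 scale, SE, adjusted p = 0.334). Psma5 (chr3:108164242-108187268, plus strand, GRCm39) had 59.8, 59.8, 59.9 and 62.8 CPM with thapsigargin, 75.6, 76.5, 73.1 and 78.9 CPM in calcium-free medium, and 80.4, 78.0, 76.0 and 83.4 CPM in controls. All 4 thapsigargin libraries were below every library of the other groups. Its log2 fold change was -0.39 ± 0.04 (SE, edgeR adjusted p = 1.23e-05), the largest decrease among the 47.

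Psma2 (chr13:14787827-14800258, plus strand) had 109, 99.3, 103 and 113 CPM with thapsigargin, 132, 139, 137 and 143 CPM in calcium-free medium, and 140, 138, 132 and 142 CPM in controls. Its thapsigargin libraries again lay below all others, with a log2 fold change of -0.38 ± 0.05 against controls (adjusted p = 5.57e-05). Psma1 fell by 0.24 on the log2 scale, and Psma3, Psma4 and Psma7 by 0.13 to 0.14. Without replicate 4, Psma4 did not pass (adjusted p = 0.067). The gene Psma3 had 119, 115, 118 and 124 CPM with thapsigargin and 131, 128, 131 and 132 CPM in controls, so the groups did not overlap even for this small decrease (-0.13 ± 0.03, adjusted p = 0.00844). The gene 3110056K07Rik, which lies over Psma3 on the opposite strand, held counts equal to 3.55% of those of Psma3.

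All 7 beta ring genes fell with thapsigargin. Psmb5, which encodes the chymotrypsin-like site that proteasome inhibitors used in myeloma bind (chr14:54851577-54855452, minus strand), had 44.2, 44.1, 44.0 and 47.8 CPM with thapsigargin, 50.9, 52.0, 52.9 and 57.2 CPM in calcium-free medium, and 53.0, 52.9, 58.0 and 56.0 CPM in controls. Each thapsigargin library was below each library of the other groups, and the log2 fold change was -0.29 ± 0.05 (adjusted p = 0.000645). Mir686, a microRNA gene inside Psmb5 on the same strand, held counts equal to 11.3% of those of Psmb5, so how reads were divided between them can affect this value.

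Psmb7, the trypsin-like subunit, had 132, 128, 127 and 137 CPM with thapsigargin and 156, 151, 152 and 158 CPM in controls (-0.24 ± 0.04, adjusted p = 0.000665), with no overlap. Psmb6, the caspase-like subunit, had 127, 126, 127 and 145 CPM with thapsigargin and 148, 143, 151 and 151 CPM in controls. Its replicate 4 with thapsigargin overlapped the controls, and the decrease was smaller (-0.18 ± 0.05, adjusted p = 0.0223). The structural subunits Psmb1, Psmb2, Psmb3 and Psmb4 fell by 0.17 to 0.27 on the log2 scale.

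The summed level of the 14 ring genes was 1506 ± 54.0 CPM with thapsigargin, 1706 ± 61.0 CPM in calcium-free medium and 1740 ± 36.6 CPM in controls (SD, n = 4 each). The thapsigargin sum was 13.5% below that of controls, and its range of 1452 to 1577 CPM lay below the control range of 1711 to 1793 CPM. The 17 genes of the 19S particle summed to 2661 ± 93.3 CPM with thapsigargin, 2879 ± 109 CPM in calcium-free medium and 2871 ± 64.5 CPM in controls, a sum 7.29% lower with thapsigargin than in controls. The ranges of the 19S sums did not overlap between thapsigargin (2599 to 2799 CPM) and control libraries (2828 to 2966 CPM). This depended on the scaling of library sizes. As a plain percent of counts, the 19S share was 0.275 ± 0.0086 with thapsigargin and 0.283 ± 0.0077 in controls. There the libraries overlapped (up to 0.288 with thapsigargin, from 0.278 in controls). The 20S share was 0.156 ± 0.0050 and 0.171 ± 0.0044, without overlap (up to 0.162, from 0.168).

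In scaled CPM, summed markers of cell types were also lower with thapsigargin than in controls. The counts of called markers stand beside 14.8% of all genes called lower and 16.4% called higher. The 9 astrocyte markers summed to 6601 to 7674 CPM with thapsigargin and 7387 to 8508 CPM in controls, a difference of means of -12.85%, and 2 of the 9 were called lower and 1 higher. The 6 vascular and fibroblast markers differed by -14.33%, with 1 called lower (Acta2) and 3 of the 6 above 0 on the log2 scale. Acta2 made up most of that sum (1956 of 3125 CPM in controls). The 5 neuronal markers differed by -20.26%, with 1 of the 4 tested called lower. That was Stmn2, which made up most of the neuronal sum (149.8 of 179.6 CPM in controls). Oligodendrocyte lineage markers differed by only -3.32%, with 1 called higher, and proliferation markers by -3.72%, with 1 called lower. The direction of these 2 sums depended on the scaling of library sizes. As a plain percent of counts, oligodendrocyte lineage markers were at 0.163 with thapsigargin and 0.161 in controls. Proliferation markers were at 0.142 and 0.141. Mitochondrially encoded genes summed to 18896 to 25347 CPM with thapsigargin and 24760 to 30514 CPM in controls (-18.03%). The part of these in the proteasome sums was not tested.

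**Figure D2:**
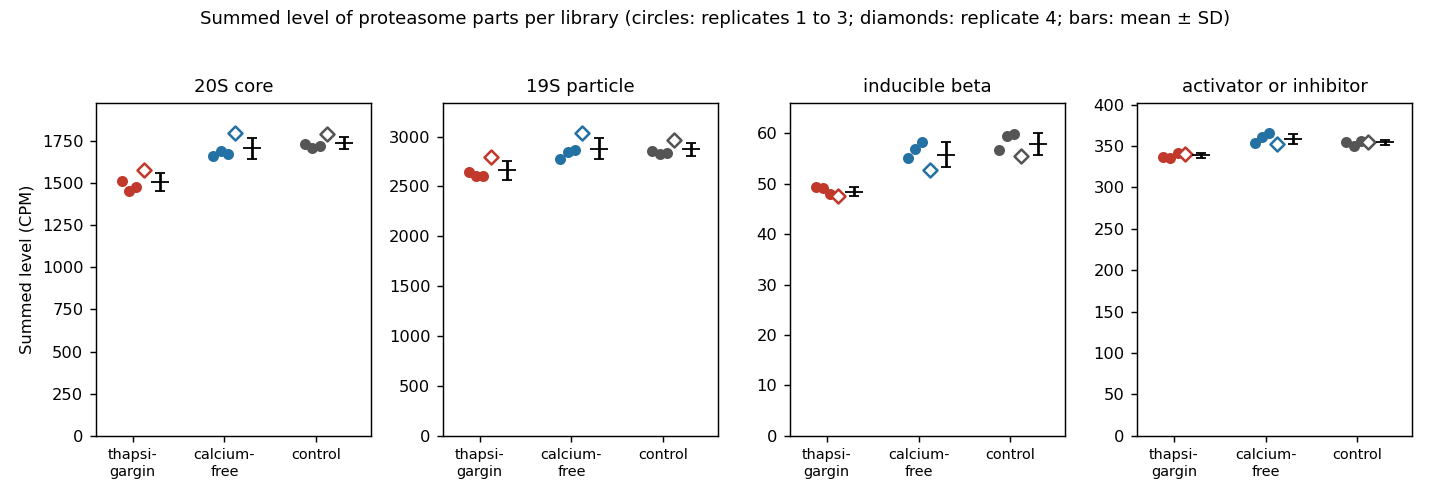
Summed CPM of the genes of 4 parts of the system in each library, by group; bars show the mean and SD of 4 libraries, and open diamonds mark replicate 4. The thapsigargin libraries lie below all control libraries for the 20S core (1452 to 1577 against 1711 to 1793 CPM), and replicate 4 is the highest of its group there.

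The inducible subunits were measured at low level. Psmb10 had 30.8, 30.5, 28.4 and 26.4 CPM with thapsigargin, 35.2, 35.0, 34.9 and 29.8 CPM in calcium-free medium, and 35.3, 36.6, 39.1 and 31.9 CPM in controls, and it fell by 0.30 on the log2 scale (adjusted p = 0.00948). Psmb8 had 13.9, 13.7, 14.6 and 15.5 CPM with thapsigargin and 16.3, 17.3, 15.4 and 18.6 CPM in controls, with an overlap of 1 library, and fell by 0.23 (adjusted p = 0.0356). Psmb9 had 4.54 to 5.59 CPM with thapsigargin and 4.91 to 5.63 CPM in controls and did not pass the test (-0.07 ± 0.09, adjusted p = 0.608).

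Microglia are known to express these inducible subunits. Of the 8 microglial markers, 2 were called lower with thapsigargin (25%, against 14.8% of all genes). The median log2 fold change of the 8 was -0.40, against -0.05 over all genes. Their summed level was 68.9 to 103 CPM with thapsigargin and 84.5 to 138 CPM in controls. The ranges overlapped, with replicate 4 the lowest of both groups, and within each of the 4 same-numbered pairs the sum was lower with thapsigargin. All 8 markers were lower in all 4 pairs, where 34.4% of all genes were. In calcium-free medium the markers were also lower than in controls. Their sum differed by -13.58% and their median log2 fold change was -0.24, with 0 called, against 5.33% of all genes. There 6 of the 8 were lower in all 4 pairs, as were 2884 of all 17077 genes. The sum of the 3 inducible subunits differed by -3.68% there, with 0 called. The part of microglia in the change of Psmb8 and Psmb10 was not tested.

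In the 19S particle, fewer genes passed. Of the 6 ATPases, which thread the unfolded substrate into the core, Psmc1 and Psmc3 fell with thapsigargin. Psmc1 had 140, 140, 140 and 152 CPM with thapsigargin and 161, 160, 160 and 177 CPM in controls (-0.20 ± 0.05, adjusted p = 0.00528). Psmc2, a subunit of the same ring, had 130, 132, 132 and 147 CPM with thapsigargin and 136, 132, 131 and 141 CPM in controls, and the groups overlapped (0.00 ± 0.05, adjusted p = 0.958). With the replicate block, Psmc4, Psmc5 and Psmc6 also passed as lower (adjusted p from 0.00769 to 0.0348).

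Of the 11 non-ATPase subunits, 4 fell: Psmd2, a scaffold that docks ubiquitin-like proteins, Psmd8, Psmd13 and Psmd14, the deubiquitinase that cuts ubiquitin chains off the substrate. Psmd13, a subunit of the lid (chr7:140462307-140478555, plus strand), had 101, 97.1, 96.9 and 99.2 CPM with thapsigargin, 118, 129, 127 and 135 CPM in calcium-free medium, and 128, 125, 130 and 133 CPM in controls. The thapsigargin libraries lay far below the others, and the log2 fold change of -0.39 ± 0.04 (adjusted p = 2.91e-05) was the second largest decrease of the 47. Psmd14 had 128, 124, 121 and 127 CPM with thapsigargin and 133, 135, 130 and 138 CPM in controls. The groups did not overlap, but its decrease of 0.10 (adjusted p = 0.0437) was lost under 15 of 23 alternative settings.

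The ubiquitin receptor Psmd4 had 101 to 110 CPM with thapsigargin and 105 to 114 CPM in controls (-0.06 ± 0.05, adjusted p = 0.365). The lid subunits Psmd11 (-0.05 ± 0.03, adjusted p = 0.265) and Psmd12 (-0.08 ± 0.04, adjusted p = 0.2) did not pass. With the replicate block, Psmd6, Psmd7 and Psmd12 passed as lower (adjusted p from 0.0079 to 0.0306), which brought the 19S particle to 12 of 17 genes called lower, against 6 of 17 without the block. Over all genes the share called lower was then 28.2%, against 14.8% without the block.

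The 3 chaperones that assemble the base of the 19S particle did not move together. Psmd9 (chr5:123366253-123388189, plus strand) had 31.5, 30.5, 29.7 and 33.6 CPM with thapsigargin, 30.04, 31.3, 29.9 and 32.4 CPM in calcium-free medium, and 27.3, 28.3, 28.6 and 29.6 CPM in controls. Both treated groups lay above all 4 controls. With thapsigargin the log2 fold change was 0.14 ± 0.05 (adjusted p = 0.0452), a call lost under 11 of 23 alternative settings. Psmd10, known as gankyrin, had 16.96, 16.2, 15.8 and 16.5 CPM with thapsigargin and 20.1, 19.2, 19.8 and 18.5 CPM in controls, and fell by 0.24 (adjusted p = 0.00107). Psmd10 overlaps Atg4a on the opposite strand, which had 89.0% of its counts, and the strand setting of the counting is not given in the sources used here. Psmd5 had 82.0 to 85.0 CPM with thapsigargin and 80.3 to 81.3 CPM in controls, with no overlap, and did not pass (0.05 ± 0.03, adjusted p = 0.192), but it passed as higher without replicate 4 (adjusted p = 0.0291).

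**Figure D3:**
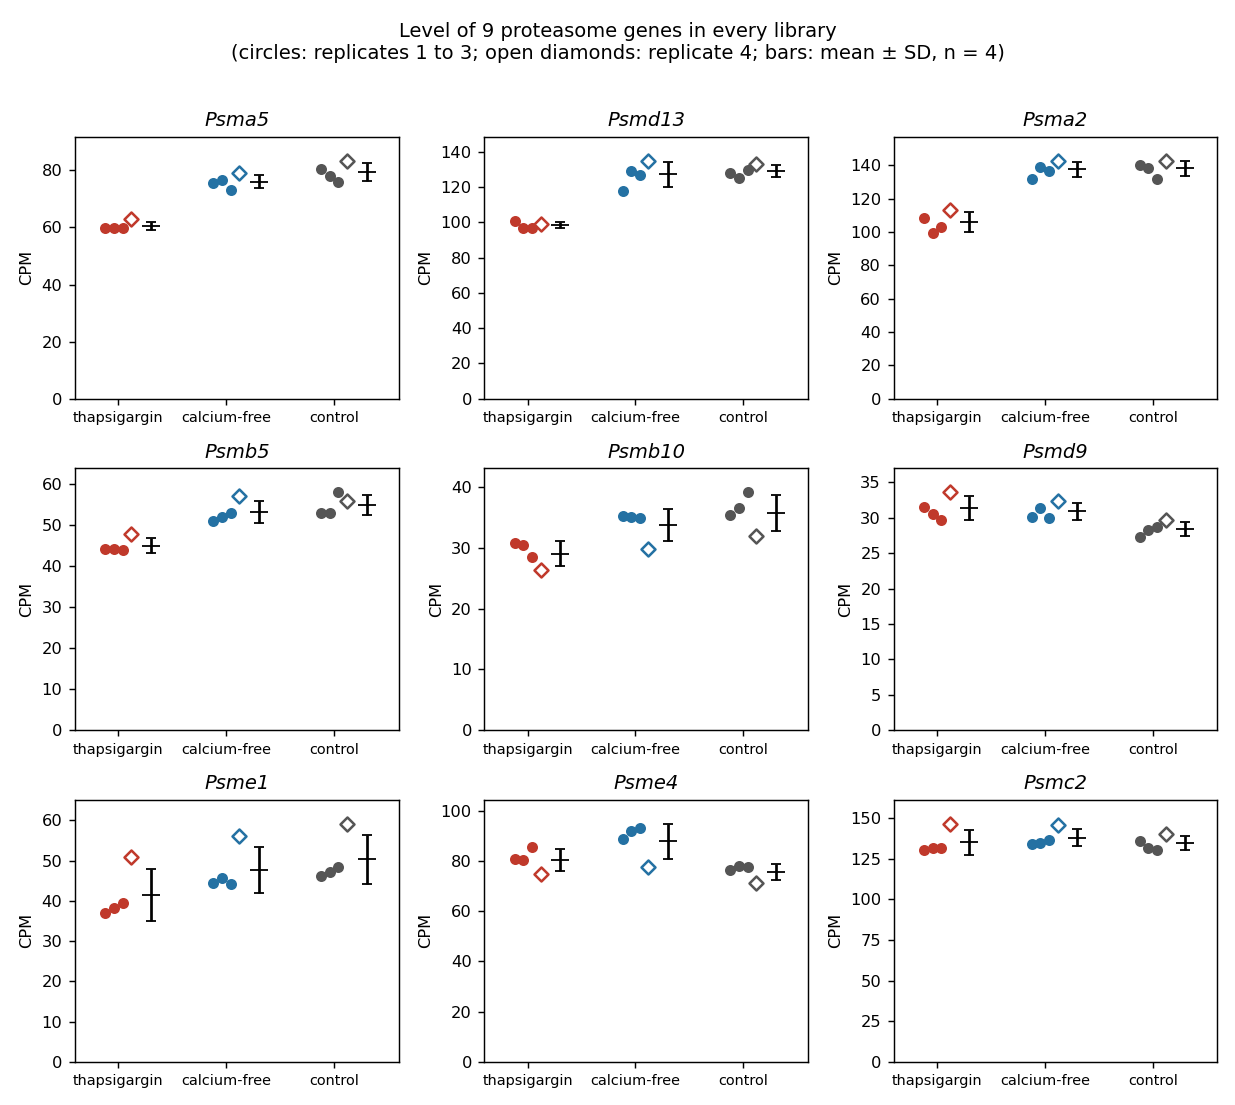
CPM of 9 genes in every library, by group, with circles for replicates 1 to 3, open diamonds for replicate 4, and the mean and SD of 4 libraries beside them. Psma5, Psmd13 and Psma2 are lower in all 4 thapsigargin libraries than in all other libraries, and replicate 4 stands above the other replicates for Psme1 (51.0 CPM with thapsigargin, 56.1 in calcium-free medium and 59.1 in controls).

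Of the alternative caps, Psme2 was called lower with thapsigargin. Psme1 and Psme2 form the interferon-inducible cap that opens the core without ATP. Psme2 had 53.5, 51.6, 52.3 and 51.8 CPM with thapsigargin and 60.6, 58.1, 63.6 and 59.5 CPM in controls (-0.21 ± 0.04, adjusted p = 0.00093). Psme1 had 37.0, 38.2, 39.3 and 51.0 CPM with thapsigargin, 44.4, 45.8, 44.2 and 56.1 CPM in calcium-free medium, and 46.3, 47.3, 48.4 and 59.1 CPM in controls. Replicate 4 was high in each group, and without a block the test was not passed (-0.28 ± 0.12, adjusted p = 0.0883). With the replicate block Psme1 was lower at an adjusted p of 2.02e-06, and without replicate 4 at 2.24e-05. Emc9 overlaps Psme1 on the opposite strand and had 21.4% of its counts.

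The nuclear activator Psme3 had 115 to 122 CPM with thapsigargin and 120 to 128 CPM in controls (-0.08 ± 0.04, adjusted p = 0.102), and passed as lower with the replicate block (adjusted p = 0.0174). Psmf1, a regulator first described as an inhibitor of the core, had 50.4, 49.2, 48.3 and 40.7 CPM with thapsigargin and 45.7, 44.6, 47.6 and 37.6 CPM in controls, and replicate 4 was the low one in both groups. Its log2 fold change was 0.10 ± 0.09 (adjusted p = 0.45), and with the replicate block it passed as higher (adjusted p = 0.0147). Psme4 was at 0.09 ± 0.06 (adjusted p = 0.311) and passed as higher with the block (adjusted p = 0.0274). Psmf1, Psmb10 and Psme4 were the 3 genes for which replicate 4 was the lowest library of all 3 groups.

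Among the 20S assembly chaperones, which pair up to build the alpha ring, Psmg2 passed as lower (-0.16 ± 0.06, adjusted p = 0.048), a call lost under 15 of 23 alternative settings. Psmg4 had 12.4 to 12.8 CPM with thapsigargin and 12.6 to 14.3 CPM in controls (-0.11 ± 0.06, adjusted p = 0.187). Psmg1 was at -0.18 ± 0.08 (adjusted p = 0.114) and passed as lower with the replicate block (adjusted p = 0.00471). Psmc3ip, the gene that is no subunit, had 20.5, 18.2, 17.9 and 23.0 CPM with thapsigargin and 18.3, 19.8, 19.3 and 22.7 CPM in controls (-0.01 ± 0.10, adjusted p = 0.954). Mlx overlaps Psmc3ip on the opposite strand and had 124% of its counts, so the value of Psmc3ip is uncertain.

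Exon length moved with the thapsigargin result. Proteasome genes are short, with a median summed exon length of 1337 bases against 3597 bases over all genes tested. Over all genes, the median log2 fold change with thapsigargin was -0.18 up to 1000 bases, -0.13 up to 1500, -0.09 up to 2500, -0.05 up to 4000 and 0.02 above 4000 bases. The proteasome medians in the same classes were -0.22 (n = 9), -0.18 (n = 17), -0.10 (n = 12), -0.05 (n = 7) and 0.00 (n = 2). In each class the 2 medians lay within 0.05 of each other. The shares called lower differed more. From the shortest class to the longest, 6 of 9, 10 of 17, 6 of 12, 2 of 7 and 0 of 2 members were called lower. Over all genes these shares were 25.1%, 23.9%, 17.7%, 15.1% and 10.2%. With the trend of each library on exon length removed, 13 of the 47 were called, 11 lower and 2 higher, and the median was -0.05. In either direction that is 27.7% of the members, near the 28.1% of all genes called in this setting. Called lower were 11 of the 47 members, against 13.2% of all genes. The median over all genes was then -0.04. With this and the replicate block together, 21 were called, 16 lower and 5 higher, where 48.2% of all genes were called and 26.4% were lower. The part of length in the result was not tested beyond these values.

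**Figure D4:**
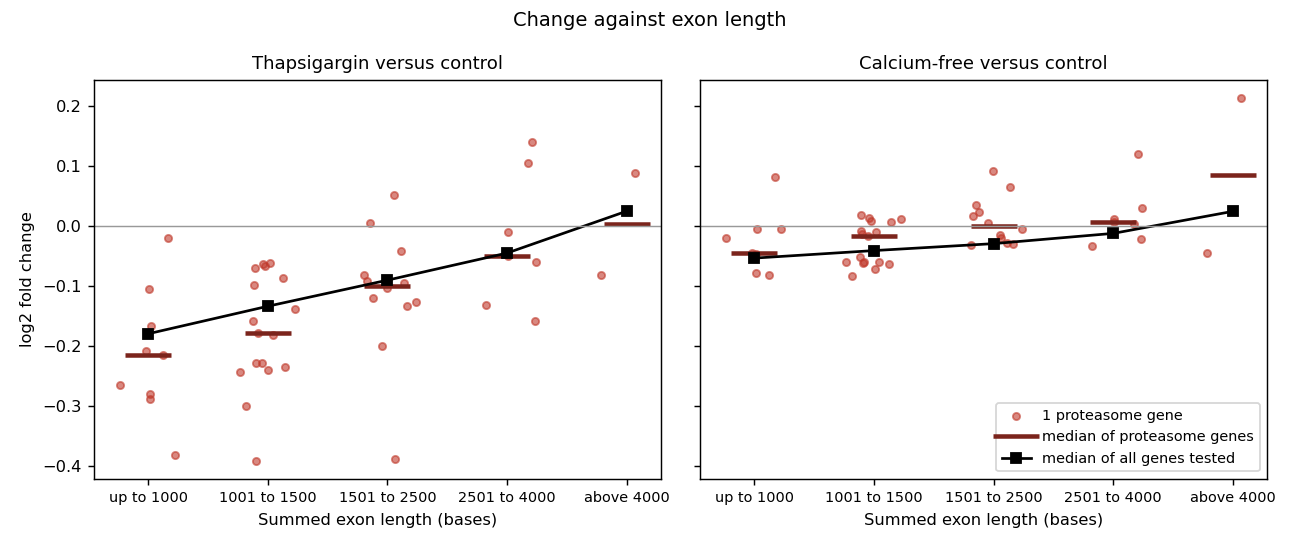
Log2 fold change of the 47 genes (points) in 5 classes of summed exon length, with the median of the proteasome genes (dark bars) and of all genes tested (black squares). With thapsigargin the median over all genes runs from -0.18 in the shortest class to 0.02 in the longest, and the proteasome medians lie within 0.05 of it in each class.

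Psma1, Psma2, Psma5, Psmb3, Psmb5, Psmb7, Psmd10 and Psmd13 were called lower under all 23 alternative settings, those with the length trend removed included. For Psma5 the log2 fold change ranged from -0.42 to -0.27 over these settings, for Psmd13 from -0.42 to -0.30 and for Psma2 from -0.41 to -0.24. The calls of Psma4, Psma7, Psmb1, Psmb2, Psmb4, Psmb6, Psmb8, Psmb10, Psmc1, Psmc3, Psmd8, Psmd14, Psme2 and Psmg2 were lost with the length trend removed and no block. Within the 20S core, 7 of 14 genes stayed past the threshold with the length trend removed, and 13 of 14 with the replicate block. Over all genes 13.2% and 28.2% were called lower in these settings. The count of 25 called members dropped to 16 without thapsigargin replicate 2, all lower, and to 14 with no filter on low counts, where 15% of all genes were called. With the block it was 36 (33 lower and 3 higher), while the share of all genes called then was 51.2%.

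Calcium-free medium left no call among the 47. By edgeR's quasi-likelihood test 0 genes passed and 3 had an unadjusted p under 0.05 (Psmc6, Psmd9 and Psme4), with 1 called by DESeq2 (Psme4), 0 by limma-voom and 3 with the replicate block. Over all genes tested 5.33% passed, 3.78% higher and 1.55% lower. The libraries did not overlap for 1 gene that was higher in calcium-free medium (Psmd9) and for 0 that were lower, against 6.04% and 4.43% over all genes. The median log2 fold change of the 47 was -0.01, as over all genes, and all values lay between -0.08 and 0.21. All 47 genes together summed to 5229 ± 169 CPM in calcium-free medium and 5253 ± 103 CPM in controls, a difference of -0.466% that was smaller than the SD of either group.

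Psme4, the activator known from chromatin and from spermatogenesis, had the largest difference (chr11:30721753-30831150, plus strand). It had 88.6, 91.9, 92.99 and 77.5 CPM in calcium-free medium and 76.2, 78.0, 77.4 and 71.1 CPM in controls. Replicate 4 was the lowest of each group, and in calcium-free medium it fell among the controls. The log2 fold change was 0.21 ± 0.06 (adjusted p = 0.0633). With the replicate block the adjusted p was 0.000185, and without replicate 4 it was 0.000139. Erlec1 overlaps Psme4 on the opposite strand and had 89.6% of its counts, so the value of Psme4 is uncertain.

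With the replicate block Psmd9 also passed as higher in calcium-free medium (0.12 on the log2 scale, adjusted p = 0.041), as did the ATPase gene Psmc6 (0.09, adjusted p = 0.0412). The gene Psmc6 had 123, 123, 118 and 124 CPM in calcium-free medium and 118, 115, 107 and 119 CPM in controls. Without replicate 4, Psmb6 passed as lower (-0.09, adjusted p = 0.0456), but with the replicate block added 0 of the 14 ring genes passed. Catalytic Psmb5 and Psmb7 were at -0.05 ± 0.05 and 0.01 ± 0.04 (adjusted p = 0.752 and 0.988).

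The direct comparison of thapsigargin with calcium-free medium asked whether the treatments differed. In it 20 of the 47 genes were called, all lower with thapsigargin, where 27.9% of all genes passed and 13.2% were lower. The libraries did not overlap for 21 genes that were lower and 1 that was higher, against 13.4% and 14.9% over all genes. The median log2 fold change was -0.12, against -0.02 over all genes. The difference itself uses no control sample, while the comparisons above share the controls. The estimate of the spread, though, came from all 12 libraries. With only these 2 groups fitted, 14 genes were called, where 23.9% of all genes passed. The largest decreases were those of Psma2 (-0.38 ± 0.05, adjusted p = 0.000116), Psmd13 (-0.37 ± 0.04, adjusted p = 7.95e-05) and Psma5 (-0.33 ± 0.04, adjusted p = 8.52e-05).

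By role, 5 of 7 alpha ring genes, 6 of 7 beta ring genes, 3 of 6 ATPases and 4 of 11 other 19S subunits were lower with thapsigargin than in calcium-free medium. Psmc6 was in this set (-0.20 ± 0.04, adjusted p = 0.00392), having passed in neither comparison with controls. None of the 3 inducible subunits passed, with 0.0509 as the smallest adjusted p, for Psmb8. With the replicate block Psmb8 and Psmb10 passed as lower (adjusted p = 0.00587 and 0.000406). In all, 31 genes passed with the block, 30 lower and 1 higher (Psmf1), where 49.4% of all genes passed and 26.9% were lower. With no filter on low counts 11 passed, against 13.1% of all genes.

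Genes that work with the proteasome but fall outside the symbol pattern were taken from 5 lists, whose counts stand beside the 16.4% of all genes called higher and 14.8% called lower with thapsigargin. Of 14 measured proteasome-associated genes, 3 rose and 3 fell with thapsigargin (21.4% each way). Pomp, the maturation factor that the beta ring is built on, had 84.3, 80.4, 81.9 and 80.5 CPM with thapsigargin, 109, 109, 111 and 103 CPM in calcium-free medium, and 116, 114, 112 and 108 CPM in controls. Its log2 fold change of -0.46 ± 0.04 (adjusted p = 2.6e-06) was a larger decrease than that of any of the 47, and it passed under all 23 alternative settings. Sem1, a small 19S subunit, and Ube3c, a ubiquitin ligase that binds the proteasome, also fell (-0.21 ± 0.03 and -0.19 ± 0.03, adjusted p = 0.000431 and 0.000574). The call of Sem1 was lost with the length trend removed (adjusted p = 0.596).

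Midn encodes midnolin, which takes proteins made by immediate early genes to the proteasome without ubiquitin. It had 165, 165, 155 and 157 CPM with thapsigargin, 142, 123, 126 and 116 CPM in calcium-free medium, and 107, 109, 114 and 96.8 CPM in controls. All libraries of both treatments lay above the controls. Midn rose by 0.58 ± 0.06 on the log2 scale with thapsigargin (adjusted p = 3.17e-05) and by 0.25 ± 0.06 in calcium-free medium (adjusted p = 0.0477). The calcium-free call was lost under 12 of 23 alternative settings. The stress-inducible Zfand2a and its relative Zfand2b rose with thapsigargin by 0.38 and 0.20.

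Of the 6 ubiquitin and ubiquitin activation genes, 3 fell (50%) and 1 rose (16.7%) with thapsigargin. The polyubiquitin gene Ubb had 531, 506, 510 and 567 CPM with thapsigargin and 600, 591, 613 and 634 CPM in controls (-0.21 ± 0.06, adjusted p = 0.0172). This call was lost under 4 of 23 alternative settings, and with the length trend removed the value was -0.09 (adjusted p = 0.245). The ubiquitin fusion gene Rps27a fell by 0.17, a call also lost with the length trend removed (adjusted p = 0.831). Uba6, one of the enzymes that activate ubiquitin, rose by 0.34 ± 0.06 (adjusted p = 0.000586). In calcium-free medium none of the 6 passed in edgeR, and 1 had an unadjusted p under 0.05.

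Of the 10 genes around NRF1, 3 rose (30%) and 1 fell (10%) with thapsigargin. Nfe2l1 itself had 334, 349, 340 and 280 CPM with thapsigargin and 395, 390, 406 and 337 CPM in controls, with replicate 4 low in both groups. The groups overlapped, and its decrease of 0.23 (adjusted p = 0.0416) was lost under 11 of 23 alternative settings. Ddi2, the protease that cuts NRF1, had 17.996, 19.8, 18.04 and 18.5 CPM with thapsigargin and 13.7, 14.1, 14.6 and 13.2 CPM in controls (0.42 ± 0.05, adjusted p = 6.74e-05). The small MAF genes Mafk (0.76 ± 0.06, adjusted p = 3.65e-06) and Maff (0.72 ± 0.13, adjusted p = 0.00112) rose. Mafk also rose in calcium-free medium (0.41 ± 0.06, adjusted p = 0.00336), the only call of that list there without a block. There Maff was at 0.29 ± 0.13 (adjusted p = 0.268), and it passed as higher with the replicate block (adjusted p = 0.000696) and without replicate 4 (adjusted p = 0.00259).

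Of 9 shuttle factors and partners of the segregase VCP, Ddi2 was the 1 gene called with thapsigargin (11.1%, against 31.2% of all genes). Vcp was at -0.10 ± 0.04 against controls (adjusted p = 0.0652) with thapsigargin, and passed as lower with the replicate block (adjusted p = 0.00578). In calcium-free medium 0 of these 9 passed in edgeR and 1 had an unadjusted p under 0.05, the VCP cofactor Nploc4 (0.15 ± 0.04, adjusted p = 0.0646). Nploc4 passed as higher with the replicate block (adjusted p = 0.00519) and without replicate 4 (adjusted p = 0.0222). Zfand5, a proteasome activator of the first list, was at -0.14 ± 0.04 there (adjusted p = 0.0912), and passed as lower with the block (adjusted p = 0.0133) and with the length trend removed (adjusted p = 0.0276).

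Of 9 antigen processing genes that act beside the immunoproteasome, 1 rose (11.1%) and 3 fell (33.3%) with thapsigargin. The transcription factor gene Irf1 had 33.4, 41.7, 34.6 and 31.4 CPM with thapsigargin and 23.0, 22.7, 23.4 and 21.4 CPM in controls, and rose by 0.64 ± 0.08 (adjusted p = 0.000125). B2m, the light chain of class I molecules, had 141, 136, 137 and 128 CPM with thapsigargin and 170, 164, 158 and 146 CPM in controls and fell by 0.24 (adjusted p = 0.00412). With the length trend removed B2m was at -0.08 and did not pass (adjusted p = 0.339, and 0.0552 with the block as well). H2-K1 and Tapbp fell by 0.18 and 0.16, and the call of Tapbp was lost with the length trend removed (adjusted p = 0.0592). In calcium-free medium none of the 9 passed in edgeR and 1 had an unadjusted p under 0.05, Nlrc5 (-0.39 ± 0.17, adjusted p = 0.241), and Tap1 was at -0.10 ± 0.10 (adjusted p = 0.75).

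**Figure D5:**
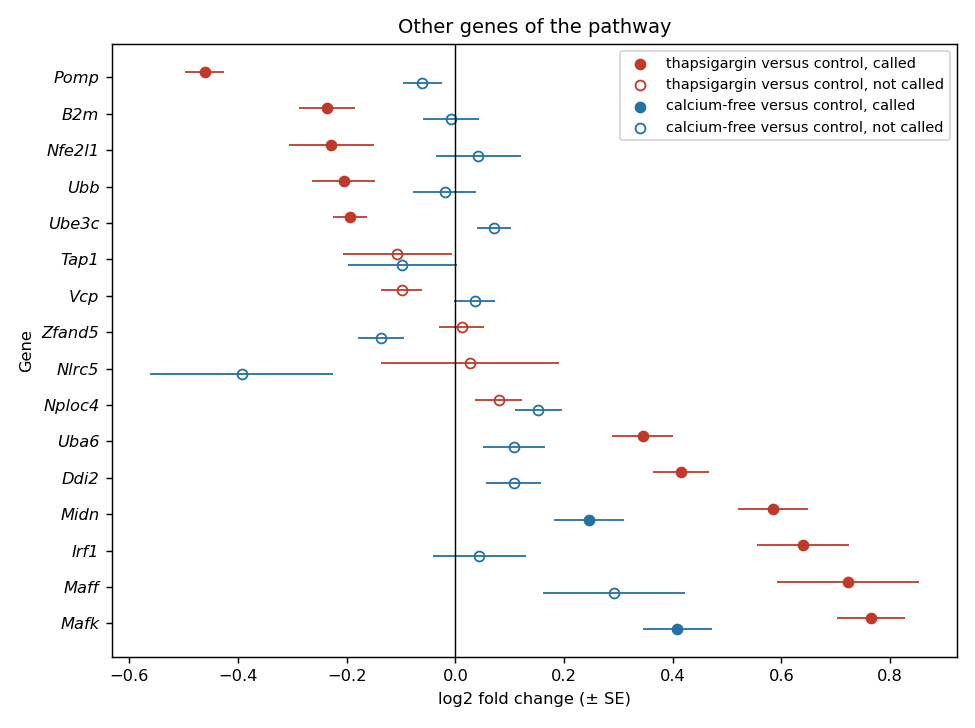
Log2 fold change with its SE for 16 genes outside the symbol pattern, red for thapsigargin versus control and blue for calcium-free versus control; filled points passed the test. Pomp has the lowest value with thapsigargin (-0.46), and Mafk and Midn are the genes called higher in both comparisons.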

How the data were processed

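The submitters' processing notes name STAR (2.7.2b), featureCounts (1.6.4, Subread), cutadapt (1.17) and bcl2fastq (2.20.0.422), and GRCm39, with no order of steps. The strand setting is not stated there. The authors deposited estimated counts per gene, 14.2% to 15.9% of them not whole in a library, which were rounded. After a filter at a minimum count of 10, edgeR (4.0.16, R 4.3.3) gave quasi-likelihood tests with TMM scaling, robust estimation and 1 mean per group over 12 libraries. Benjamini-Hochberg adjustment ran over 17077 genes, calls were made under 0.05, and each SE came from the test statistic. CPM used scaled library sizes. The test was checked on simulated data. Alternatives were DESeq2 (1.42.0), limma-voom (3.58.1), RLE and upper quartile scaling, no filter, 2 groups only, a replicate block, removal of the exon length trend (span 0.3) and left-out libraries.

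The members, lists and motifs were chosen with earlier results of these data known. Named genes were, per comparison, the 3 largest called changes each way, a fixed set of members, and the 2 genes of each list with the smallest p, with Pomp, Nfe2l1 and Ubb always. Sem1, Zfand2a, Zfand2b, Rps27a, H2-K1, Tapbp, Xist, Ddx3y, the cell type markers and the other members given with their own values were added after their values were seen. Single-gene results for some list genes are not reported here. Replicate numbers were tested as pairs by correlating deviations from group means across genes. Numbers 1 to 3 gave r from 0.159 to 0.392 and number 4 gave 0.814 to 0.836, every pair above 0.1, so numbers were taken as pairs. This pairing rests on replicate 4, since different numbers from 1 to 3 gave 0.238 to 0.412. The check therefore cannot tell whether equal numbers from 1 to 3 are pairs. No label says that equal numbers share a mouse.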

Additional observations from a re-analysis of the deposited data

Results flagged for a closer look

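In 25 of 141 groups of 4 libraries (47 genes in 3 groups), 1 library lay farther from the others than Dixon's criterion allows at 95%, where chance gives about 1 in 20; groups of different genes share libraries and are not independent. Of these, 22 were replicate 4. With thapsigargin, replicate 4 was high, in CPM, for Psmb5 (47.8), Psmb6 (145), Psmc2 (147), Psme1 (51), Psme3 (122), Psma5 (62.8), Psmd1 (290), Psma7 (118), Psmd3 (204) and Psmc1 (152). In calcium-free medium it was high for Psmb6 (154), Psme1 (56.1), Psmc3ip (23), Psmb2 (124), Psmd7 (174), Psmd3 (208), Psmc5 (132), Psma6 (131) and Psmg1 (21.8), and it was low for Psmb10 (29.8). In controls it was high for Psme1 (59.1) and Psmc1 (177). Psme1 was the 1 gene with replicate 4 far above the rest in all 3 groups, Psmb6 and Psmd3 had this in both treated groups, and Psmc1 with thapsigargin and in controls. The other 3 values were low: Psma3 in control replicate 2 (128 CPM), Psmd8 in calcium-free replicate 1 (184 CPM) and Psmc6 in calcium-free replicate 3 (118 CPM).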

How the results depend on the processing

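With thapsigargin against control, the count of 25 called members was 14 with no filter on low counts, 13 with the exon length trend removed, 36 with the replicate block, and 16 to 28 with libraries left out; 16 came without thapsigargin replicate 2 and 28 without replicate 4. The median log2 fold change of the members was -0.05 with the length trend removed, with or without the block (-0.047 and -0.048), and -0.13 to -0.11 with libraries left out. Psmg3 was the 1 result that changed sign and passed, at 0.13 with the length trend removed and the replicate block (adjusted p = 0.0403). Calls over all genes were 5331, with 8737 under the replicate block, 8225 under the block with the length trend removed, and 4336 to 7745 with libraries left out. In calcium-free medium against control, the count of 0 called members was 1 with DESeq2, 3 with the replicate block, 4 with the block and the length trend removed, 1 with the block and without replicate 4, and 0 to 2 with libraries left out. Calls over all genes there were 911, with 1486 by DESeq2, 500 with only these groups fitted, 2968 under the block, 2901 under the block with the length trend removed, 2228 under the block without replicate 4, and 372 to 2659 with libraries left out. With thapsigargin against calcium-free medium, the 20 called members were 11 with no filter, 14 with only these groups fitted, 31 with the replicate block and 16 to 29 with libraries left out. With the length trend removed they were 16, of which 15 were lower, where 13.5% of all genes were lower. The median of -0.12 was -0.07 with the length trend removed (-0.0695, and -0.0692 with the block). It was -0.080 without calcium-free replicate 4 and -0.082 without replicate 4. Calls over all genes were 4757, with 8428 under the block and 8220 under the block with the length trend removed.

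Of the lists, with thapsigargin the 6 proteasome-associated calls were 5 to 10 with libraries left out (10 without replicate 4). The 4 ubiquitin calls were 1 with no filter, 1 with the length trend removed, and 1 to 5 with libraries left out (1 without thapsigargin replicate 2 or 3). The 1 shuttle factor call was 2 with upper quartile factors, 2 with the replicate block, 3 with the block and the length trend removed, 2 with the block and without replicate 4, and 1 to 2 with libraries left out. The 4 antigen processing calls were 2 with the length trend removed. In calcium-free medium the 1 proteasome-associated call was 3 with DESeq2, 0 with upper quartile factors, 0 with only these groups fitted, 2 with the block, 2 with the length trend removed, 3 with both, and 0 to 1 with libraries left out. The 0 ubiquitin calls were 1 with the block. The 0 shuttle factor calls were 1 with DESeq2, 1 with RLE factors, 1 with the block, 1 with the block and the length trend removed, 1 with the block and without replicate 4, and 0 to 1 with libraries left out. The 1 call around NRF1 was 2 with the block, 3 with the block and the length trend removed, 2 with the block and without replicate 4, and 1 to 2 with libraries left out. Causes were not tested.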
